A study of Mus musculus with 8 samples.

Results

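Accessible regions lying deep inside very long genes were compared between tumour-infiltrating type 1 conventional dendritic cells (cDC1s) taken early and late in tumour growth. A region was included when its centre lay within a protein-coding gene of at least 200 kb and over 20 kb from the end of any protein-coding gene. This held for 12576 of the 128057 regions of the deposited table, in 860 of the 989 genes of that length, and 43 of the regions lay within more than 1 such gene. The gene table carries no exons, so a deep region is called intronic from its place inside the gene, and overlap with an exon was not checked.

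Introns of long genes are known to hold many enhancers, short stretches of DNA that transcription factors bind and open and that act on promoters near or far, of the host gene or of another gene. They can also hold alternative promoters, where a shorter transcript of the same gene starts. cDC1s take up dead tumour cells and present their antigens to CD8 T cells, and the set of open enhancers in a dendritic cell reflects its lineage and its state of activation.

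All 8 libraries came from wild-type mice with tumours of B16-OVA, melanoma cells of mouse origin engineered to make ovalbumin so that an antigen is known. cDC1s were sorted from tumours 7 days after inoculation (4 libraries) or 21 days after it (4 libraries), and no other treatment separated the groups. Open chromatin was profiled by ATAC-seq, in which a transposase inserts sequencing adapters into accessible DNA, so that the count of a region measures its accessibility. The labels give no strain, age or sex, nor whether each library stands for its own mouse or a pool, and p values therefore measure only library-to-library spread, which may be technical.

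Some deep regions covered an annotated start of a transcript of their host gene, and the sequences just upstream of 5 such starts are shown because these are deep sites whose function the annotation names and whose accessibility changed. Each run is the 250 bases before a start of the host gene, 5′ to 3′ on the strand of the gene, from the RefSeq table of GRCm38.p6 (mm10). Capitals mark matches on either strand to TGANTCA (AP-1), AGAGGAAG (PU.1 and other ETS factors), GGGCGG (the GC box) or TATAAA (the TATA box). The windows lie at chr6:99028299-99028548 for Foxp1, minus strand, chr1:80665353-80665602 for Dock10, minus strand, chr9:32224025-32224274 for Arhgap32, plus strand, chr6:38918736-38918985 for Tbxas1, plus strand, and chr11:62076774-62077023 for Specc1, plus strand.
Foxp1: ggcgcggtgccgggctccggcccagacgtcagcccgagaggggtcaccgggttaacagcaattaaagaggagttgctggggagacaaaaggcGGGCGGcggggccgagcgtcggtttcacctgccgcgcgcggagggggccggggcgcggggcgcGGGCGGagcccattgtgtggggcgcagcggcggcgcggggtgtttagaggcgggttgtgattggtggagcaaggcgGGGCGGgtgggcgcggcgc
Dock10: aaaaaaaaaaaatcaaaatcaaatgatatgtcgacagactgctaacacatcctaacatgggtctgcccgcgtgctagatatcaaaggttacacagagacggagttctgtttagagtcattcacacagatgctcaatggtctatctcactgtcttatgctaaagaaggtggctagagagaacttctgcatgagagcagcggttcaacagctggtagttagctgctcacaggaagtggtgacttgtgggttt
Arhgap32: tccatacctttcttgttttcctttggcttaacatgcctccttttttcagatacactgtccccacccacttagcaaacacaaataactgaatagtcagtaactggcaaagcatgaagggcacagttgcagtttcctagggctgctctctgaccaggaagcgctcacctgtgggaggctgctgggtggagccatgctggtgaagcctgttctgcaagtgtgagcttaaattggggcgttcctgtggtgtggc
Tbxas1: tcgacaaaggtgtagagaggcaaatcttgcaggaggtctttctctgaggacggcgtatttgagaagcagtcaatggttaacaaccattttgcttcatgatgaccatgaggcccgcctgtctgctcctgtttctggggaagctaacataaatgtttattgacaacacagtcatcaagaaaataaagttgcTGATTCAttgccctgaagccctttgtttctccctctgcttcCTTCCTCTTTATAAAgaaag
Specc1: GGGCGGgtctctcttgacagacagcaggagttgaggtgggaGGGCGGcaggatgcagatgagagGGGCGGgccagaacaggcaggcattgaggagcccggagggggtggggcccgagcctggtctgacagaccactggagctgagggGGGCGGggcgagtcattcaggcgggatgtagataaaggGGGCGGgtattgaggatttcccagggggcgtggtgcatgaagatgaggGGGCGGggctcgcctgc

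The upstream sequence of the internal Foxp1 start held 3 GC boxes and was 74.0% G and C. That of Specc1 held 6 GC boxes, the match found most often, and was 66.4% G and C. The Tbxas1 sequence held an AP-1 match and, next to its start, an ETS match that ran into overlapping TATA matches on opposite strands. Neither the Dock10 nor the Arhgap32 sequence held any of these letters. Over the 102 deep regions at host-gene starts, the GC box was in 41.2% of the 250-base sequences against 32.7% of all 32851 such sequences in the table, AP-1 in 7.84% against 6.75%, the ETS letters in 4.90% against 3.67% and the TATA box in 5.88% against 12.4%. The element bound by interferon regulatory factors was in 4.90% against 2.98%, and TGTGGTT, a motif of RUNX factors, in 3.92% against 4.40%. These matches describe letters only and were not tested against the change in accessibility.

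Libraries held between 9440223 and 16063736 counts at day 7 and between 14021151 and 27737040 at day 21, of which 546083 to 939530 and 869740 to 1716277 fell in deep regions. The median deep region had 22 to 38 counts in a day 7 library and 34 to 65 in a day 21 library. Defining cDC1 genes were open at their ends: 14 of the 15 markers had a region there, Itgae being without one, with a summed level of 598 to 637 CPM (counts scaled to the size of the library) at day 7 and 616 to 672 at day 21. Of 20 T and NK cell markers 18 had a region, Lck and Ncr1 being at 0, and their sum was 152 to 170 CPM at day 7 and 140 to 154 at day 21. Of 9 markers of plasmacytoid dendritic cells 4 had a region, with Spib, Ccr9, Klk1, Cox6a2 and Runx2 at 0, and their sum was 82.0 to 91.5 CPM at day 7 and 77.8 to 79.5 at day 21, without overlap. All 17 macrophage and monocyte markers had one (125 to 135 against 132 to 145 CPM). So did all 9 markers of type 2 conventional dendritic cells (161 to 184 against 173 to 196 CPM), with 5 means higher and 4 lower at day 21. Of 10 melanoma markers 7 had one, with a sum of 174 to 188 CPM at day 7 and 170 to 182 at day 21. Pmel held most of this sum (123 and 116 CPM) and Mitf much of the rest (40.4 and 46.3 CPM), with Tyr, Slc45a2 and Oca2 at 0. Of the melanoma means 5 were lower and 2 higher at day 21. The median per marker over both days was 0.872 CPM for melanoma, 4.74 for T and NK cells and 46.4 for cDC1s. The part of other cell types in the changes below was not tested, and in bulk libraries fewer cells of a type and less open chromatin per cell cannot be told apart.

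The first comparison asks whether deep regions gained or lost accessibility as a class between day 7 and day 21. Counts in deep regions made up 5.96%, 5.78%, 5.83% and 5.85% of the counts of the 4 day 7 libraries and 6.20%, 6.14%, 6.03% and 6.19% of the 4 day 21 libraries. Every day 21 library lay above every day 7 library, and the means were 5.85% ± 0.0737 and 6.14% ± 0.0771 (SD, n = 4 each; exact two-sided permutation p = 0.0286, the smallest the design allows, adjusted p = 0.0381 over 4 measures). The shift depended on what the deep regions were set against. Against regions within 1 kb of gene ends, the log2 ratio of counts rose from −2.72 to −2.57, by 0.16 (exact permutation p = 0.0286, n = 4 per day). Against intergenic regions over 20 kb from any gene end it rose from −1.18 to −1.13, by 0.05 (exact permutation p = 0.0286, n = 4 per day). Against the other regions inside genes it was −2.31 at both days (exact permutation p = 0.829, n = 4 per day).

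**Figure D1:**
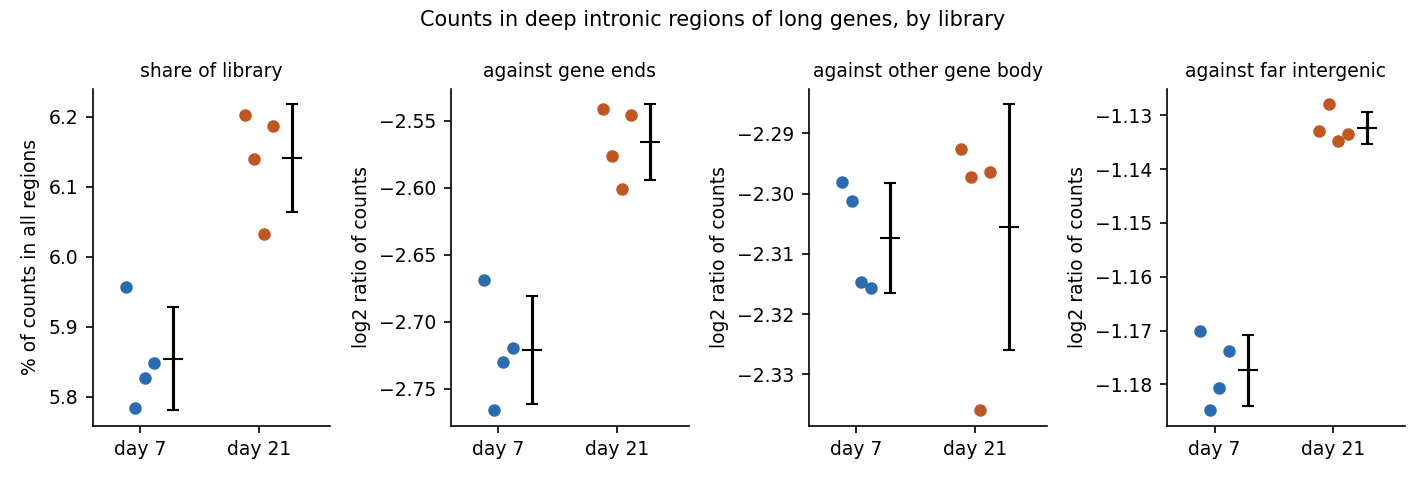
Counts in deep intronic regions per library as a percent of all counts in regions (first panel) and as a log2 ratio to the counts at gene ends, in other gene-body regions and in intergenic regions over 20 kb from gene ends. Points are the 4 libraries of a day and bars the mean ± SD. Days separate in all panels but the one against other gene-body regions, and the y axes do not start at 0.

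Region by region, 1212 deep regions were higher at day 21 and 1038 lower, and 9545 did not pass the threshold, among the 11795 that could be tested (edgeR's quasi-likelihood test fitted on all regions, Benjamini-Hochberg adjusted p under 0.05). That is 10.3% higher and 8.80% lower, where 9.5% and 9.86% of all 121865 tested regions were higher and lower. A further 781 deep regions had too few counts to be tested. Day 7 and day 21 values did not overlap in 2238 tested deep regions (19.0%, against 19.8% of all tested regions). Both shares of calls were thus close to those of the whole table. Regions at gene ends differed the most, with 6.64% higher and 16.6% lower. The other gene-body regions gave 10.8% higher and 7.86% lower calls, and far intergenic regions 8.96% and 10.4%.

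Losses were larger in size than gains, in the deep regions as in the whole table. Of the 11795 tested deep regions, 542 had fallen at least 2-fold past the threshold and 225 had risen so. Of all 121865 tested regions, 4579 (3.76%) had fallen and 1945 (1.6%) had risen by as much. Regions called lower had a median level of 3.55 CPM at day 7 and 1.63 at day 21, while those called higher had a median of 5.93 and 9.17 CPM. The part of level in the size of called changes was not tested. Fitted log2 fold changes of called regions ran from −4.06 to 3.18. Just inside the limits of the choice, deep regions 20 to 22 kb from a gene end gave 25 higher and 11 lower calls of 207 tested. Just outside, regions of the long genes 18 to 20 kb from an end gave 33 and 20 of 225. Genes of 200 to 220 kb, inside the limit, gave 98 higher and 88 lower calls of 986 deep regions. Genes of 180 to 200 kb, outside it, gave 134 and 92 of 1188 regions over 20 kb from a gene end.

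Several regions with a very small p and at least a 2-fold change are given 1 by 1. A site in Tmtc2, an endoplasmic reticulum protein of O-mannosylation, at chr10:105263182-105263800, held 4.32, 5.95, 7.76 and 6.83 CPM at day 7 and 0.984, 0.782, 0.589 and 0.925 at day 21, with a log2 fold change of −2.90 ± 0.26 (SE; edgeR adjusted p = 5.38e-14). It was nearly closed in each day 21 library. Sites in Trerf1 (chr17:47234282-47235122), a zinc finger transcriptional regulator, and Celf2 (chr2:6598426-6599162), an RNA-binding splicing regulator, fell from 10.9 ± 0.945 to 2.39 ± 0.722 CPM and from 12.7 ± 1.1 to 3.71 ± 0.582 CPM (log2 fold changes −2.16 ± 0.18 and −1.80 ± 0.16).

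Among gains, a site in Myo16 at chr8:10534790-10535366, 381 kb from the start of the gene, held 11, 6.27, 9.95 and 11.1 CPM at day 7 and 24.8, 33.6, 40.1 and 28.3 at day 21. No library of one day reached the range of the other, and the log2 fold change was 1.70 ± 0.12 (edgeR adjusted p = 5.83e-18). A site in Plcb4, a phospholipase C of receptor signalling, at chr2:135891118-135891762, held 6.98, 7.22, 9.61 and 7.58 CPM at day 7 and 21.5, 27.1, 34.1 and 20.7 at day 21, again apart (1.71 ± 0.13; edgeR adjusted p = 5.44e-17). Sites in Prkg1 (chr19:31621196-31621709), the cGMP-dependent protein kinase, and Hecw2 (chr1:53882472-53882925), a HECT ubiquitin ligase, rose from 4.21 ± 0.442 to 12.6 ± 1.91 CPM and from 4.38 ± 1.01 to 12.7 ± 1.46 CPM (log2 fold changes 1.57 ± 0.16 and 1.53 ± 0.16).

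Deep regions were spread unevenly over the long genes. The median gene had 10, 91 genes had 1, and the 254 genes with at least 20 held 8172 of them. The median density was 3.40 regions per 100 kb of deep sequence, and among genes with at least 20 regions it ran from 1.64 to 30.3, the highest in Etv6. The 10 genes with the most deep regions were Foxp1 (99), Pde4d (82), Lpp (73), Snx29 (68), Asap1 (66), Hdac9 (66), Dlg2 (65), Arid1b (62), Gse1 (60) and Akap13 (60). They include a forkhead transcription factor (Foxp1), a cyclic AMP phosphodiesterase (Pde4d), a class IIa histone deacetylase (Hdac9), a BAF chromatin remodelling subunit (Arid1b) and an ARF GTPase-activating protein (Asap1).

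Summed over all deep regions of a gene, 246 of 849 long genes were higher at day 21 and 111 lower, and 492 did not pass. Of all 20662 sums tested (the deep regions of each gene, and the regions nearest to each gene's ends), 15% were higher and 17.2% lower. These include sums of regions at gene ends, a class with 6.64% higher and 16.6% lower calls. The long genes pool a median of 10 deep regions each, and the part of region number in these counts was not tested. The median log2 fold change was 0.07 over the long genes' deep sums and −0.02 over all sums. The deep regions of 3007 shorter genes gave 572 higher and 378 lower sums with a median of 0.04. Day 7 and day 21 sums did not overlap for 295 of the long genes, where 28.3% of all sums did not overlap. 11 genes had too few counts for a sum to be tested.

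The sums of the 10 genes with the most regions moved little. That of Asap1 alone passed the test, with 407 ± 6.06 CPM at day 7 and 441 ± 22.8 at day 21 (0.12 ± 0.04 on the log2 scale, edgeR adjusted p = 0.0237), and it did not pass without day 7 replicate 1, 2 or 3 or day 21 replicate 2 or 3 (edgeR adjusted p 0.0519 to 0.152; range over 14 alternatives 0.0115 to 0.152). Foxp1 held 780, 766, 754 and 798 CPM at day 7 and 819, 754, 947 and 794 at day 21 in its 99 deep regions. Its days overlapped and the sum did not pass (0.10 ± 0.04, edgeR adjusted p = 0.0841), and it rested on 1 library. Without day 21 replicate 3 the log2 fold change was 0.01 (edgeR adjusted p = 0.809), and without day 21 replicate 2 it was 0.13 (edgeR adjusted p = 0.0341), the ends of the range over alternatives. Pde4d (382 ± 9.16 to 377 ± 13.7 CPM) and Dlg2 (294 ± 2.81 to 301 ± 12.2 CPM) were level within the spread of their libraries.

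Counting called regions per gene, 172 genes had at least 5. Of these, 24 had all of them higher (186 regions) and 20 all of them lower (157 regions). In 81 others at least 2 were called in each direction, and 47 had only 1 against the rest. No region was called in 259 genes and 1 to 4 in 429. Of 111 shorter genes with at least 5 called deep regions, 33 had all higher and 12 all lower.

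**Figure D2:**
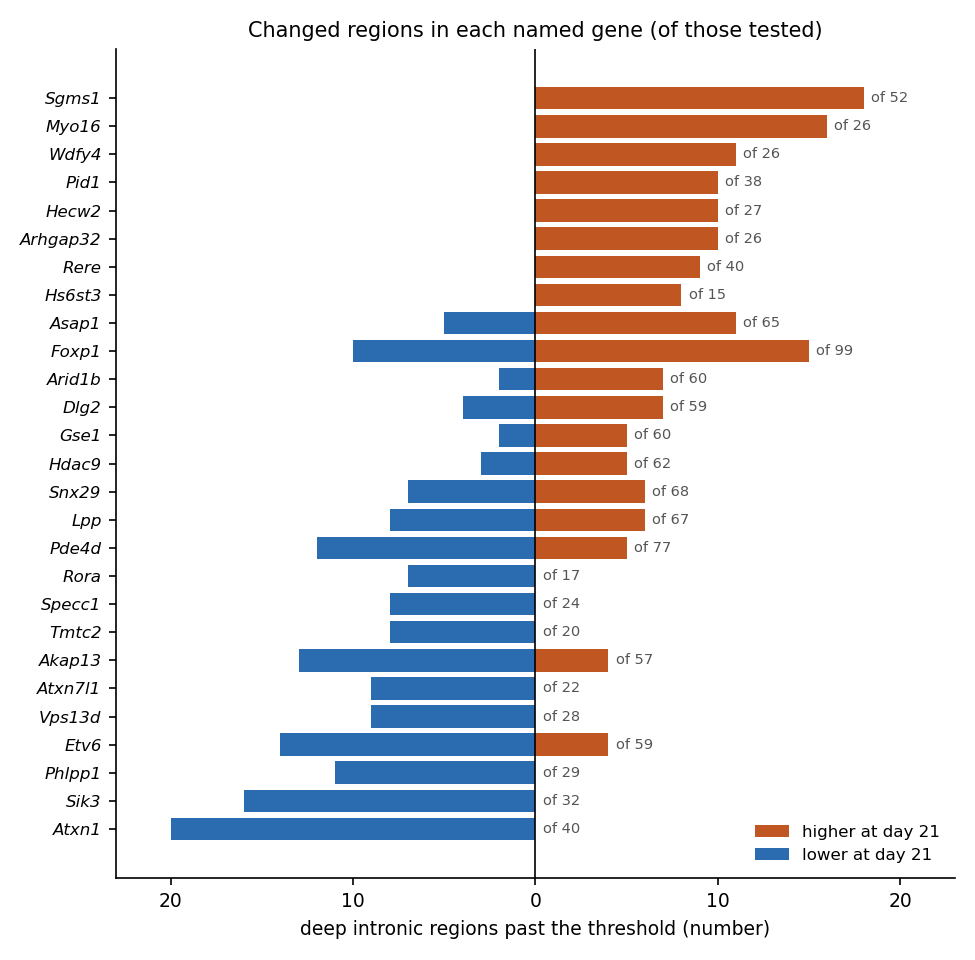
Number of deep intronic regions past the threshold (x axis) that were higher (right) or lower (left) at day 21 in the genes with the most regions, the genes with change in 1 direction and the genes with most calls in both. The number tested stands beside each bar. Sgms1 has 18 higher and none lower of 52, Atxn1 20 lower and none higher of 40, and Foxp1 15 and 10 of 99.

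Myo16, an unconventional myosin studied mainly in neurons (chr8:10153911-10634742), had the largest rise of the named genes. Its 26 deep regions summed to 74.9, 76.7, 78.2 and 76.8 CPM at day 7 and 142, 199, 200 and 163 at day 21. The lowest day 21 library was well above all of day 7, although the day 21 libraries differed more among themselves. The log2 fold change was 1.20 ± 0.06 (edgeR adjusted p = 4.57e-21), with 16 regions called higher, 24 of 26 above 0 and the called ones all between 253 and 412 kb from the gene's start. The ends of Myo16 held 2.01 ± 0.209 CPM at day 7 and 2.81 ± 0.472 at day 21.

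Sgms1, a sphingomyelin synthase (chr19:32122727-32389885), had 18 of 52 deep regions called higher and none lower. Its sum was 553, 534, 574 and 577 CPM at day 7 and 718, 726, 787 and 675 at day 21, without overlap (0.38 ± 0.04, edgeR adjusted p = 2.54e-10). Called regions lay from 78.6 to 210 kb from the start, and the one with the smallest p, at chr19:32223608-32225053, rose from 41.8 ± 2.71 to 63.9 ± 5.50 CPM. Wdfy4, a BEACH-domain protein that cDC1s need for cross-presentation (chr14:32959547-33193855), had 11 of 26 regions higher. It held 118, 116, 124 and 126 CPM at day 7 and 171, 161, 159 and 159 at day 21, again without overlap (0.43 ± 0.05, edgeR adjusted p = 6.01e-10). Cadm1, an adhesion molecule used to mark cDC1s and chosen here after its values were seen, had 22 of 44 tested regions higher and 1 lower. Its deep sum went from 316, 312, 313 and 334 CPM to 435, 473, 491 and 404 (0.50 ± 0.05, edgeR adjusted p = 9.80e-13), with no overlap between the days. The ends of Cadm1 held 62.0 CPM at day 7 and 64.2 at day 21, and the mean at the ends was lower at day 21 for 4 of the 14 cDC1 markers with a region, Irf8 (54.8 to 38.2 CPM), Batf3, Xcr1 and Flt3.

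Further genes with gains alone were Arhgap32, a GTPase-activating protein (10 of 26 regions, 135 ± 2.37 to 189 ± 14.4 CPM), Hecw2 (10 of 27, 149 ± 6.02 to 203 ± 17.0 CPM), and Pid1, an adaptor of insulin and lipoprotein receptor signalling (10 of 38, 169 ± 7.69 to 208 ± 6 CPM). Rere, a nuclear co-regulator, had 9 of 40 and rose from 223 ± 7.20 to 271 ± 15.7 CPM. Hs6st3, a heparan sulfate sulfotransferase, had 8 of 15 and rose from 45.9 ± 1.81 to 69.2 ± 4.46 CPM. Their log2 fold changes ran from 0.28 (Rere) to 0.59 (Hs6st3), and each sum passed (edgeR adjusted p at most 2.37e-06). The sum of every gene named for gains alone holds the called regions by which it was chosen. Its passing is therefore no separate support. In Hecw2 the called regions lay between 263 and 350 kb from the start and in Hs6st3 between 209 and 712 kb.

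**Figure D3:**
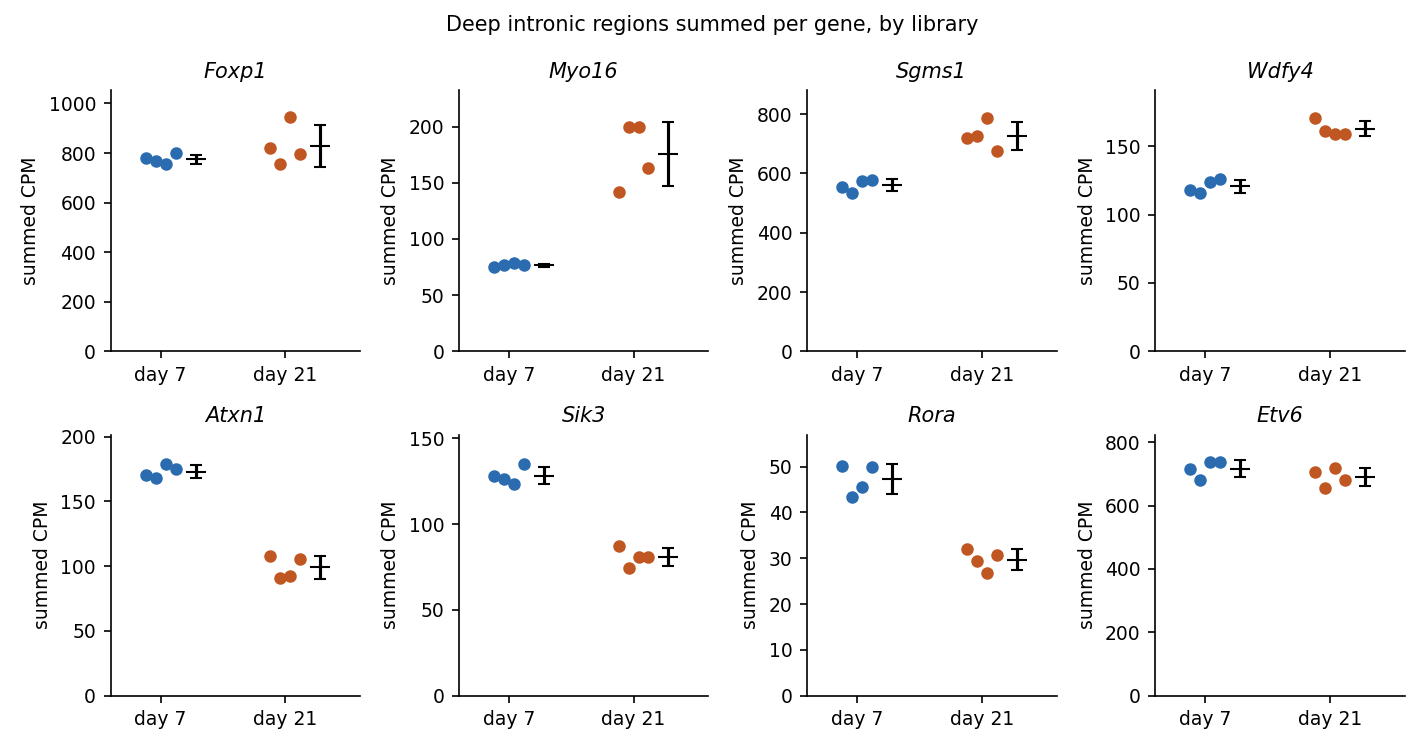
CPM summed over the deep intronic regions of 8 genes (y axes from 0) in the 4 libraries of each day, with mean ± SD. Myo16, Sgms1 and Wdfy4 are higher and Atxn1, Sik3 and Rora lower at day 21 in every library, while the days overlap for Foxp1 and Etv6.

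On the losing side, Atxn1, which encodes a binding partner of the repressor Capicua (chr13:45549755-45964991), had 20 of 40 tested regions lower and none higher. Its 49 regions summed to 170, 168, 179 and 175 CPM at day 7 and 108, 90.5, 92.7 and 105 at day 21. The days were well apart (−0.80 ± 0.05, edgeR adjusted p = 2.47e-18), 36 of 40 tested regions lay below 0, and the fitted changes of called regions ran from −2.51 to −0.64. The region with the smallest p, at chr13:45681280-45681575, fell from 4.75 ± 1.59 to 0.820 ± 0.0785 CPM. Sik3, a salt-inducible kinase that phosphorylates class IIa histone deacetylases (chr9:46012820-46224194), had 16 of 32 lower. It held 128, 126, 124 and 135 CPM at day 7 and 87.5, 74.6, 80.9 and 80.9 at day 21, without overlap (−0.67 ± 0.05, edgeR adjusted p = 9.05e-15), with called regions from 33.3 to 167 kb from its start.

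Rora, a nuclear receptor known for its need in innate lymphoid cells (chr9:68653404-69388246), had 7 of 17 tested regions lower. Its sum was 50.2, 43.4, 45.5 and 49.9 CPM at day 7 and 31.9, 29.4, 26.8 and 30.7 at day 21 (−0.67 ± 0.07, edgeR adjusted p = 2.95e-10). All called regions of Rora lay in the distal part of the gene, from 381 to 705 kb from the start. Further genes with losses alone had smaller changes of their sums. They were Ablim1, an actin-binding LIM protein (7 of 23 regions, −0.51 ± 0.06), Tmtc2 (8 of 20 regions, −0.41 ± 0.06), Vps13d, a lipid-transfer protein (9 of 28, −0.37 ± 0.05), Specc1 (8 of 24, −0.33 ± 0.05), Phlpp1, a phosphatase of Akt (11 of 29, −0.22 ± 0.05) and Atxn7l1 (9 of 22, −0.17 ± 0.04). Each passed with an edgeR adjusted p of at most 0.00136. As with the gains, the sums of genes named for losses alone hold the regions by which they were chosen, and are no separate support. The summed plasmacytoid markers (82.0 to 91.5 against 77.8 to 79.5 CPM) were also lower at day 21, through Bst2 (38.0 to 32.7 CPM) and Tcf4 (26.8 to 21.5), while Siglech went from 10.9 to 13.5 and Pacsin1 from 11.1 to 11.2. The sums of T and NK cell markers (152 to 170 against 140 to 154 CPM) overlapped, and the mean was lower at day 21 for 14 of the 18 markers with a region. Their part in these losses was not tested.

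Among the 172 genes with at least 5 called regions, calls in both directions (81 genes) were more frequent than gains alone (24) or losses alone (20). A gene with more calls has more room for both directions, and the part of call number was not tested. Foxp1 had 15 regions higher and 10 lower, and they were not mixed evenly: within 200 kb of the start 9 were higher and 1 lower, from 200 to 400 kb none was higher and 7 lower, and from 400 to 600 kb 6 were higher and 2 lower. In Etv6, an ETS-family repressor, 14 regions were lower and 4 higher, with 9 lower and none higher in its first 100 kb. Its sum was level, at 717 ± 27.3 CPM at day 7 and 691 ± 27.5 at day 21 (−0.06 ± 0.04, edgeR adjusted p = 0.289; 0.0423 without day 21 replicate 3, range over alternatives 0.0423 to 0.558). An Etv6 region at chr6:134154229-134154431 fell from 3.66 ± 1.12 to 0.538 ± 0.285 CPM. Akap13, an anchoring protein of protein kinase A, had 13 lower and 4 higher of 57, and Pde4d 12 lower and 5 higher of 77.

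**Figure D4:**
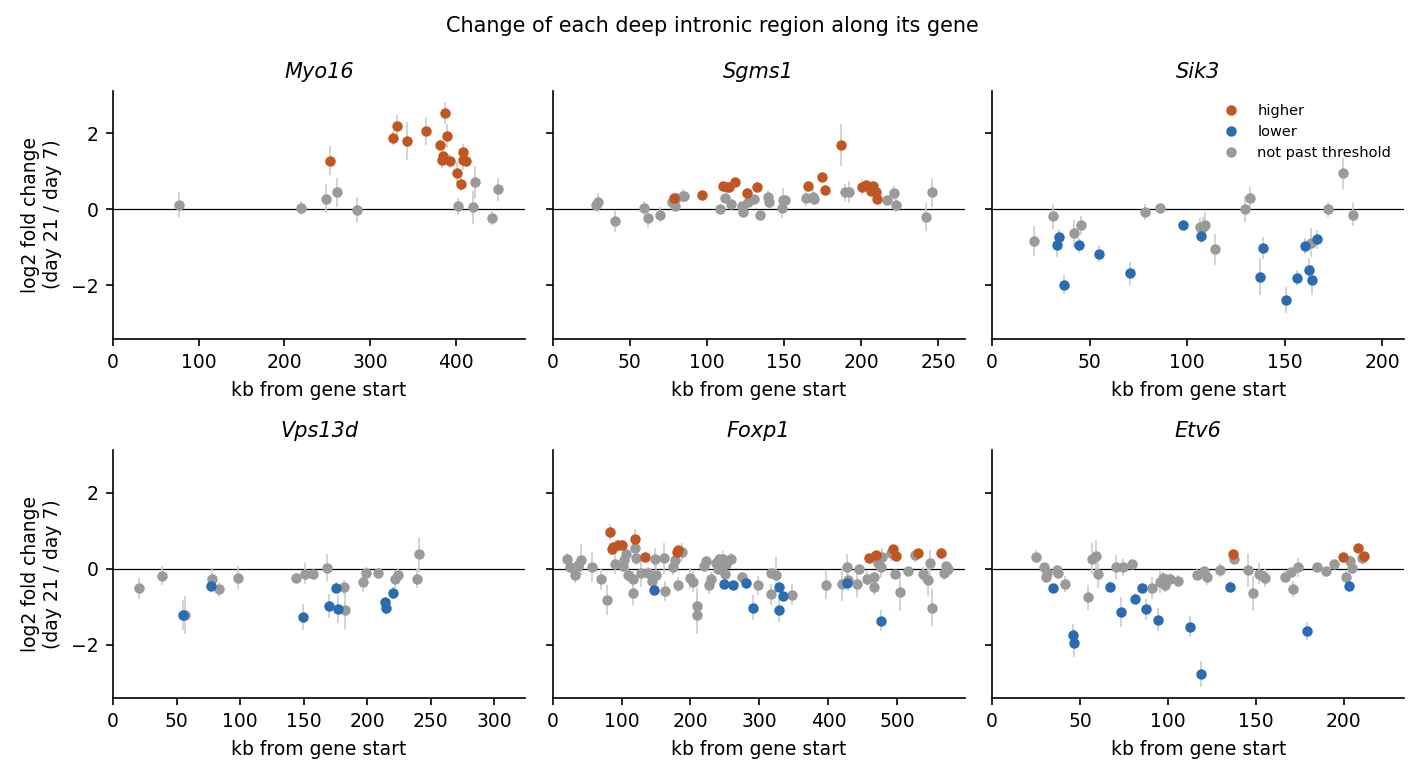
Log2 fold change (day 21 over day 7, ± SE) of each tested deep region against its distance from the gene start in kb. Changed regions of Myo16 lie between 253 and 412 kb, those of Sik3 and Vps13d are all lower, and in Foxp1 the 7 changed regions from 200 to 400 kb are all lower.

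A test within genes asked whether the regions inside a gene changed unlike each other (edgeR's diffSpliceDGE on all regions in the gene body). It was past the threshold in 539 of 787 long genes (68.5%), where 41.7% of all 9994 genes tested were. The long genes also hold many regions each, a median of 10 deep ones, and the part of region number in this share was not tested. Changed neighbours mostly went the same way: of 219 adjacent pairs of called regions within 2 kb of each other, 212 (96.8%) had the same direction, of 463 within 10 kb 427 (92.2%) did, and of 561 within 50 kb 499 (88.9%) did. Neighbouring regions are not independent, and these pairs are given as a description.

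Calls were spread along the genes. In the 647 genes whose strand is known, 10.9%, 10.9%, 9.81% and 10.4% of tested regions were higher over 4 equal parts from the start of the gene to its other end, and 8.30%, 8.44%, 9.40% and 9.19% were lower.

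Deep regions were then set against the ends of their own gene, in 1 model over both sums in every library. Among 534 long genes with both, the deep regions rose relative to the ends in 104 (19.5%) and fell relative to them in 39 (7.30%), and 391 did not pass. Over all 2945 genes with both sums, 17.4% and 7.13% did so. The median difference was 0.10 on the log2 scale in the long genes and 0.10 over all genes. In Sgms1 the ends stayed at 14.1 CPM at both days while the deep regions rose (difference 0.39 ± 0.09, edgeR adjusted p = 0.00237). In Sik3 the ends held 32.7 ± 2.07 and 32.9 ± 2.55 CPM while the deep regions fell (−0.68 ± 0.10, edgeR adjusted p = 3.5e-05).

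The difference between deep regions and ends also passed in Myo16 (0.74 ± 0.22), Rere (0.63 ± 0.09), Plcb4 (0.51 ± 0.11), Atxn1 (−0.51 ± 0.10), Tmtc2 (−0.30 ± 0.09) and Vps13d (−0.29 ± 0.09), with edgeR adjusted p of at most 0.0184. In Rere the ends fell as well, from 39.5 ± 4.29 to 30.8 ± 2.20 CPM, and in Myo16 they held only 2.01 and 2.81 CPM. These genes, like Sgms1, Sik3 and Mllt3, were named for changes in their deep counts, which this test uses again. Passing it is therefore no separate support. In Wdfy4 the ends rose from 16.7 ± 1.74 to 23.3 ± 1.61 CPM and the difference between deep regions and ends was −0.05 ± 0.10 (edgeR adjusted p = 0.773). Mllt3, a reader of histone acylation, moved apart from its ends: its deep sum rose from 162 ± 8.25 to 193 ± 3.36 CPM while its ends went from 52.0 ± 3.58 to 39.6 ± 1.66 (0.64 ± 0.08, edgeR adjusted p = 9e-06). Gse1, a chromatin-associated protein, had a deep sum of 362 ± 4.34 and 383 ± 11.1 CPM and ends of 2.12 ± 0.716 and 0.859 ± 0.536 (1.25 ± 0.32, edgeR adjusted p = 0.00719). Pde4d, Hdac9, Arhgap32, Pid1, Hs6st3, Rora and Runx2 had no ends that could be tested.

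**Figure D5:**
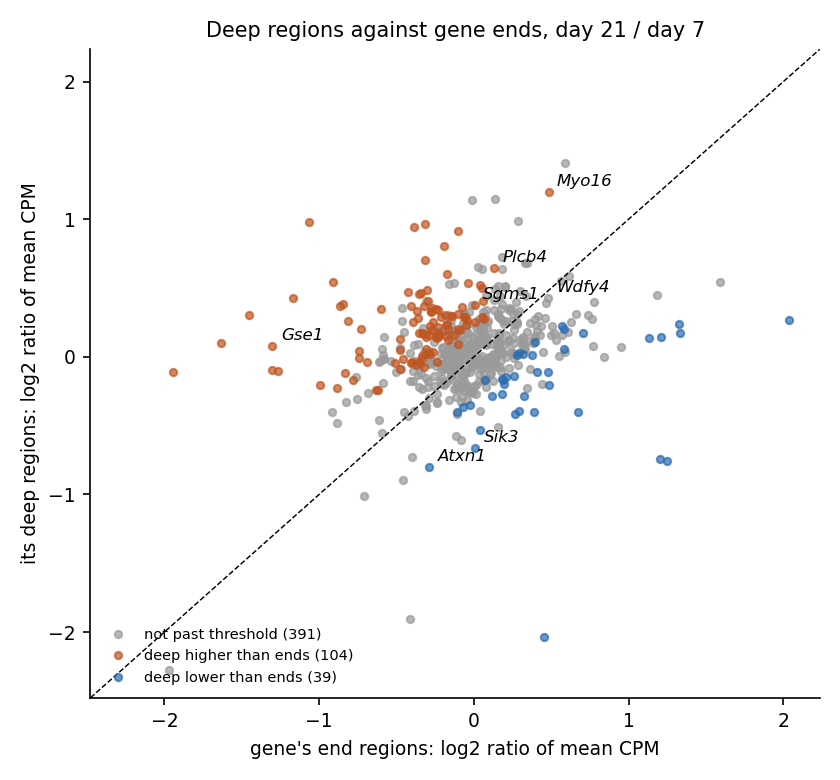
Log2 ratio of mean CPM, day 21 over day 7, of the deep regions of each long gene (y axis) against that of the regions at its ends (x axis), for 534 genes. Dashes mark equal change. Deep regions rose relative to ends in 104 genes and fell relative to ends in 39.

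Of the 102 deep regions that covered a start of their host gene (in 88 genes), 100 were tested, 11 were higher and 7 lower, against 1196 and 1023 of the 11635 tested regions with no annotated start. They were wider (median 625 against 350 bases) and more open (median 5.94 against 2.56 CPM at day 7). At the internal Foxp1 start whose upstream sequence is printed above, the region (chr6:99028054-99029044) held 22, 18, 18.7 and 21.9 CPM at day 7 and 27.4, 29.4, 33.4 and 26.8 at day 21, without overlap (0.53 ± 0.09, edgeR adjusted p = 1.58e-05). It contains the whole printed window. That of Dock10, an exchange factor for small GTPases, rose from 20.9 ± 1.7 to 28.3 ± 0.807 CPM (0.43 ± 0.09), and that of Arhgap32 from 5.01 ± 0.826 to 8.35 ± 1.39 CPM (0.72 ± 0.17).

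The internal start of Tbxas1, the thromboxane synthase, held 9.67 ± 1.66 CPM at day 7 and 13.4 ± 1.43 at day 21 (0.48 ± 0.13, edgeR adjusted p = 0.00508). The start in Specc1, with the 6 GC boxes, held 15.0, 15.2, 15.3 and 18 CPM at day 7 and 10.9, 9.20, 12.4 and 12 at day 21 (−0.51 ± 0.12, edgeR adjusted p = 0.000971). The deep sum of Specc1, which includes this region, fell too, though 8 of its 24 tested regions lay above 0. The ends of Specc1 held 18.7 ± 1.64 CPM at day 7 and 17.6 ± 0.982 at day 21. The deep sum of Arhgap32 rose as its internal start did, with 5 of 26 tested regions below 0. Windows at starts of long non-coding RNAs alone were overlapped by 61 deep regions, of which 59 were tested, 5 were higher and 8 lower. Of these the one in Clasp1, a microtubule-binding protein, fell by 0.45 on the log2 scale (chr1:118458786-118459929).

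Hairpins of 4 microRNAs lay under deep regions, in Pde4d, Pid1, Fndc3b and Gse1. The 1 in Pde4d is shown because its region changed (mature sequence from RefSeq, GRCm38.p6, seed at bases 2 to 8 in capitals).
mmu-miR-1904: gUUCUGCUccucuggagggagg

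The region over this hairpin (chr13:109903603-109903914) held 3.82, 2.23, 3.2 and 2.73 CPM at day 7 and 1.62, 0.842, 1.00 and 1.21 at day 21. The days did not overlap (−1.37 ± 0.30, edgeR adjusted p = 0.000375). The regions over the hairpins of miR-6353 (Pid1), miR-3092 (Fndc3b) and miR-7687 (Gse1) did not pass, with log2 fold changes of −0.04 ± 0.28, −0.15 ± 0.17 and 0.13 ± 0.12. No seed was shared among these microRNAs.

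Long genes were also grouped by function, with each group's counts read beside the 15% higher and 17.2% lower of all sums and the 246 higher and 111 lower of the 849 long genes. Counts of regions are read beside the 9.5% higher and 9.86% lower of all tested regions. Regulators of small GTPases, which steer migration and phagocytosis, had 19 of 43 genes higher and 6 lower (median log2 fold change 0.12), and 146 of their 1027 deep regions were higher and 74 lower. Arhgap26, a GTPase-activating protein of endocytosis, held 341, 316, 337 and 344 CPM at day 7 and 405, 407, 438 and 395 at day 21, without overlap, with 16 regions higher and 1 lower (0.30 ± 0.04, edgeR adjusted p = 1.96e-07). These genes had a median of 8.84 deep regions per 100 kb. Chromatin regulators had 6 of 12 genes higher and none lower (median 0.13; 50 regions higher and 21 lower of 360), among them Rere and Mllt3.

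Transcription factors and cofactors went the other way in their counts, with 6 of 51 higher and 10 lower (median −0.02), and 88 regions higher and 120 lower of 1092. Runx2, a factor of the Runt family, held 160, 150, 167 and 157 CPM at day 7 and 131, 117, 119 and 123 at day 21 (−0.37 ± 0.05, edgeR adjusted p = 2.99e-08), with 11 regions lower and 1 higher of 37. It is also on the list of plasmacytoid markers, but had no region at its ends. Rora, described above, fell as well. Whether these lists differ from each other was not tested.

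Genes of synaptic adhesion and other neuronal functions, many of which are very long, were sparsely open, with a median of 0.665 deep regions per 100 kb in 89 genes. Of 87 tested 28 were higher and 9 lower (median 0.10), and 77 of 741 regions were higher and 52 lower. Asic2, an acid-sensing ion channel, rose from 77.1 ± 3.63 to 108 ± 4.15 CPM (0.48 ± 0.05), with 6 regions higher and none lower of 19. Calcium, cyclic nucleotide and phospholipase genes had 8 of 31 higher and 4 lower, and 59 of 590 regions higher and 67 lower. Plcb4 held 97.8, 93.9, 93.6 and 96.8 CPM at day 7 and 126, 161, 170 and 140 at day 21, without overlap (0.64 ± 0.06, edgeR adjusted p = 9.80e-13), whereas Pde1a, a calmodulin-dependent phosphodiesterase, fell from 57.5 ± 3.29 to 42.9 ± 1.22 CPM (−0.43 ± 0.07).

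Kinases had 6 of 24 genes higher and 2 lower, and 33 of 428 regions higher and 43 lower. Prkg1 rose from 82.3 ± 3.39 to 103 ± 6.09 CPM and Sik3 fell. Phosphatases had 3 of 15 genes in each direction, and 17 of 217 regions higher and 22 lower. Ppp1r12b, a myosin phosphatase subunit, went from 78.6 ± 3.33 to 95.7 ± 5.79 CPM and Ppp2r2b, a subunit of protein phosphatase 2A, from 7.42 ± 1.48 to 12.9 ± 3.04 CPM, both past the test. Cytoskeleton and adhesion genes had 13 of 39 higher and 5 lower, with Myo16 highest and Ablim1 falling from 75.6 ± 3.48 to 53.1 ± 5.66 CPM. Of their 713 regions 79 were higher and 77 lower. Membrane traffic and glycosylation genes had 11 of 37 higher and 9 lower, and 60 of 680 regions higher and 68 lower. Of the 2 with the smallest p Wdfy4 rose and Vps13d fell.

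The 12 long genes of mitochondrial proteins and regulators had 5 higher and 1 lower sums, and 23 of 237 regions were higher and 7 lower. Nubpl, an assembly factor of respiratory complex I, held 77.0, 67.7, 67.8 and 75.9 CPM at day 7 and 90.6, 97.9, 97.1 and 96.3 at day 21 in its 15 deep regions, of which 5 were higher and none lower. The days did not overlap (0.40 ± 0.06, edgeR adjusted p = 1.29e-07), and the ends of Nubpl held 10.3 ± 1.12 and 8.41 ± 0.961 CPM. Vwa8, a mitochondrial ATPase, went from 30.4 ± 2.98 to 37.7 ± 3.99 CPM (0.32 ± 0.08, edgeR adjusted p = 0.00158). Genes known as large fragile sites had 10 of 28 sums higher and 4 lower, but 46 of 488 regions higher and 50 lower. Of the 2 with the smallest p, Rora, described above, fell. The other, Fhit, the classic member, rose from 123 ± 6.29 to 164 ± 14.6 CPM with 8 regions higher and none lower of 26.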

How the data were processed

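The table deposited by the authors gives unnormalized whole-number counts in the same regions for 8 ATAC-seq libraries of sorted cDC1s, 4 per day. Its tools, per the submitters' processing notes, include MACS2 2.1.0.20150603, bedtools, SAMtools, Picard 1.65 and cutadapt 1.9, and the builds named are mm10 and GRCm38. The aligner, the rule that merged peaks, any shift for the transposase, the object counted and the counting base (0 or 1) of the coordinates are not given in the sources used here. Regions were 1 to 3427 bases wide.

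Members and gene lists were chosen with earlier results of these data known. Genes came from a RefSeq table of GRCm38.p6 without exons (21883 protein-coding genes), strand from its promoter table. The count test was that of edgeR 4.0.16 (R 4.3.3), with filterByExpr (121865 regions kept), TMM factors of 0.978 to 1.01, a quasi-likelihood fit with the day as its only term on all regions, and Benjamini-Hochberg adjustment over all of them with a threshold of 0.05. The common biological coefficient of variation was 0.133. Sums per gene used the same factors and were adjusted over all 20662 sums. CPM values are on TMM-scaled totals, given as mean ± SD over 4 libraries; log2 fold changes are given ± SE. DESeq2 1.42.0 and limma-voom (limma 3.58.1) were alternatives. Shares of counts were compared with exact permutation tests over 70 relabelings (SciPy 1.17.1). The test of deep regions against gene ends was added after the data were seen.

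Named genes are the 10 with the most deep regions, up to 8 with all of at least 5 called regions higher and up to 8 lower, the 4 with most calls in both directions, and the 2 with the smallest p of the sum in each of 11 lists. Named regions are the 4 higher and 4 lower with the smallest p among at least 2-fold changes without overlap, 1 per gene. 1 of the lower regions is not reported here. Other starts and microRNAs were named for lying under a deep region. The edgeR tests, but not the permutation test, were tried on simulated data of these depths. False calls made up 10.4% of calls in the within-gene test and 6.43% in the test against gene ends, above the nominal level. Changes of 1.5-fold were recovered in 21% of regions, 93% of sums, 17% of within-gene cases and 35% against gene ends. In each simulation 100 features were changed at each fold, drawn from those above a minimum mean count, at a fixed spread. Far more regions were called in the data, so these shares describe the simulated setting only.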

Additional observations from a re-analysis of the deposited data

Results flagged for a closer look

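In 7 of 126 groups of 4 libraries tested, 1 library stood far from the others of its day, where chance alone flags about 6.3. The figure given for each is the gap between the farthest library and its nearest neighbour, as a share of the range of the group. For the log2 ratio of deep to other gene-body counts at day 21 the gap was 0.896 of the range. Among gene sums it was 0.842 for Lpp at day 21, 0.891 for Snx29 at day 7 and 0.949 for Akap13 at day 21, none of which differed between the days. Among named regions it was 0.834 for the Trerf1 region at day 21, 0.899 for the internal start of Specc1 at day 7 and 0.864 for the internal start of Sash1 at day 21.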

How the results depend on the processing

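No result past its threshold turned its direction under the settings tried. Values near 0 that did not pass changed sign: the log2 ratio to other gene-body regions (-0.0143 for genes of at least 400 kb, and -0.00244 to 0.012 leaving out 1 library), the sum of Lpp (-0.00533 with trended offsets, -0.0199 without day 21 replicate 3) and that of Snx29 (-0.0074 without day 21 replicate 3). Counts moved with the gene length that defines the set: with genes of at least 100 kb, 2188 regions were higher and 1770 lower, 531 sums were higher and 275 lower, and 47 genes had gains alone, and with genes of at least 400 kb these were 428, 374, 84, 39 and 7, with 5 genes of losses alone. Asking for 3 called regions in place of 5 gave 56 genes with gains alone and 48 with losses alone, and asking for 8 gave 10 and 7. For genes of at least 400 kb the share of counts rose by 0.0783 percentage points (exact permutation p = 0.0571) and the log2 ratio to far intergenic regions by 0.0301 (exact permutation p = 0.0857). Leaving out 1 library at a time gave 898 to 1151 higher and 839 to 1079 lower regions, 200 to 229 higher and 93 to 114 lower sums, 18 to 25 genes with gains alone, 17 to 23 with losses alone and 492 to 553 genes in the within-gene test. Deep regions then rose relative to ends in 76 to 99 genes and fell in 27 to 40, and the share of counts rose by 0.263 to 0.322 percentage points. The internal starts of Sh3kbp1, Mid1 and Zfhx3 passed with all libraries and lost this without some single libraries, and that of Zfhx3 also under DESeq2 (adjusted p = 0.0563) and with trended offsets (edgeR adjusted p = 0.0526). Arid1b's sum did not pass (edgeR adjusted p = 0.0614), but did under DESeq2, limma-voom, the replicate block and without day 21 replicate 1 (adjusted p 0.0395 to 0.0479; range over all alternatives 0.0395 to 0.216).

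Libraries with the same replicate number showed no shared deviation (correlations of 0.004 to 0.01). Those with different numbers gave −0.011 to 0.013. Correlations over all tested regions, many of low count, can miss a shared deviation, so whether the numbers pair the samples is not settled by this check. With a replicate block 1197 regions were higher and 991 lower, and 254 sums higher and 119 lower. An exact sign-flip test over the 4 numbered pairs cannot go below 0.125, which it gave for the share of counts (0.286), the ratio to gene ends (0.16) and the ratio to far intergenic regions (0.045). Depth limits the weaker regions: 781 deep regions were not tested.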
